A study of Mus musculus with 15 samples.

Results

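Id2 and Id3 encode inhibitors of DNA binding, and Tcf3, Tcf4 and Tcf12 encode the E proteins, the transcription factors that those inhibitors bind. These 5 genes, of 30949 listed in every library, were followed in 15 RNA-seq libraries of cultured mouse regulatory T (Treg) cells with and without the exchange factor DOCK8. They were chosen by symbol, and the choice rested on differences of Id2 and Id3 between genotypes in these same libraries, so genotype differences of the 5 genes are given as descriptions with no test. The response to stimulating beads is a different contrast and is tested, but it uses the same bead and medium-alone libraries as the genotype differences behind the choice, so its tests are not independent of that choice. All 5 genes were listed in all 15 libraries and all 5 passed the filter on low values (at least 1 TPM, a share of a library's transcripts scaled for gene length, in at least 2 libraries).

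The cells were CD25+CD39+ Treg cells that had been sorted out of the spleen and the lymph nodes. The donors were female C57BL/6 mice with floxed Dock8 alleles on both chromosomes and a YFP-Cre recombinase in a single copy of Foxp3 (Foxp3 YFP-Cre/+, Dock8 flox/flox). Foxp3 is X-linked, so such females hold Treg cells that express YFP-Cre and Treg cells that do not. The labels call the YFP+ cells DOCK8 deficient (KO) and the YFP- cells WT. KO cells therefore differ from WT cells in the YFP-Cre allele as well as in Dock8, WT cells carry the same unrecombined floxed alleles, and Cre is driven by Foxp3. Cells were kept for 16 h with beads carrying anti-CD3 and anti-CD28 antibodies at 1 bead per cell (KO, n = 2, and WT, n = 3) or in medium alone (KO, n = 6, and WT, n = 4). The labels call the samples independent but do not say whether they came from separate mice, and they give no age. The p-values then measure the spread between these samples, which may be technical.

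Helix-loop-helix proteins bind DNA as dimers. E proteins carry a basic region that contacts the E-box, whereas Id proteins have the helix-loop-helix domain without that region and hold E proteins off DNA when they pair with them. In mouse T cells Id2 is known from effector cells and Id3 from naive and memory-type cells, and Treg cells need Id2 and Id3 together to be maintained. Tcf3 and Tcf4 here are the E protein genes and not Tcf7l1 and Tcf7l2, which have gone by similar names.

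The inhibitor genes are alike in a stretch of their coding sequence, and so are the E protein genes, which bears on whether reads could be told apart between them. The most alike 90 bases within an exon are shown for Id2 with Id3 and for Tcf3 with Tcf12, from GENCODE coding sequences on GRCm38 (mm10), 5′ to 3′ on the coding strand. Capitals mark bases that are identical in the pair. The Id2 stretch lies in exon 1 on the minus strand at chr12:25095781-25095870, and the Id3 stretch in exon 1 on the plus strand at chr4:136144034-136144123.
Id2: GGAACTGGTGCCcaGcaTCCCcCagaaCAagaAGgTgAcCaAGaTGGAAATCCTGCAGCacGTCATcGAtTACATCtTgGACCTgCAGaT
Id3: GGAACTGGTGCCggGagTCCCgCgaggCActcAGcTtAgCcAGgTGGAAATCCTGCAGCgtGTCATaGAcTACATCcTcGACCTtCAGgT
The Tcf3 stretch lies in exon 18 on the minus strand at chr10:80412923-80413012, and the Tcf12 stretch in exon 19 on the minus strand at chr9:71856401-71856490.
Tcf3: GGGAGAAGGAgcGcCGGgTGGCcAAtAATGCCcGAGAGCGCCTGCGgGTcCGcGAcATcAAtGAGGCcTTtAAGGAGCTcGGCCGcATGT
Tcf12: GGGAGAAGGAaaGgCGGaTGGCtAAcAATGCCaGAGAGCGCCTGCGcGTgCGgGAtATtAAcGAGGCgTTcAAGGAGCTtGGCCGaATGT
Id2 and Id3 shared 65 of 90 bases (72.2%) in their stretch, and Tcf3 and Tcf12 shared 73 of 90 (81.1%). The longest run without a mismatch over all annotated transcripts was 19 bases between Id2 and Id3 and 18 bases between Tcf3 and Tcf12. Tcf4 shared longer runs with the other E protein genes, of 47 bases with Tcf12 and 23 bases with Tcf3. Whether reads from these shared runs were assigned to the right gene was not tested.

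Levels are in TPM, which are scaled for gene length, so genes can be compared within a library. They are shares of a library, so a comparison between libraries also depends on what else each library holds. TPM keep no read depth, so the number of reads behind a value is unknown. Predicted (Gm) genes held 33.4% to 40.1% of the TPM in the KO bead libraries and 27.4% to 31.7% in the WT bead libraries, and 58.6% to 75% in KO libraries in medium, against 44.9% to 67% in WT libraries in medium. The bead tables listed 31785 genes and those of the cells in medium listed 36904, so the bead response cannot be told apart from a difference in how these tables were made. Dock8 was at 7.90 and 5.82 TPM in KO bead libraries and 8.71 to 10.1 TPM in WT bead libraries, and at 6.70 to 11.9 TPM in KO libraries in medium, against 9.15 to 22.0 TPM in WT libraries in medium. It was lower in KO on average in both conditions but not at 0, the groups overlapped in medium, and which exons Cre removes is not given in the sources used here, so its level is a weak check of the labels. Olfactory receptor genes, which T cells do not use, had a 90th percentile of 2.04 to 2.08 TPM in KO bead libraries and 1.41 to 1.45 TPM in WT bead libraries, and 3.31 to 5.26 TPM in KO libraries in medium, against 2.33 to 4.20 TPM in WT libraries in medium.

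Id2 was lower in KO than in WT Treg cells in both conditions, and no KO library reached the lowest WT library of its condition. Id2, at chr12:25093799-25097140 on the minus strand (ENSMUSG00000020644), had 12.2 and 7.89 TPM in KO cells with beads, against 32.5, 55.2 and 43.6 TPM in WT cells with beads. In medium the KO libraries had a lowest value of 2.61, a median of 3.95 and a highest of 7.47 TPM, against 19.7, 11.9, 20.8 and 42.4 TPM in the WT libraries. All 6 KO libraries in medium thus lay under all 4 WT libraries, and the WT libraries spread more widely than the KO ones. The means were 10.0 ± 3.01 TPM in KO (SD, n = 2) and 43.8 ± 11.3 TPM in WT (n = 3) with beads, a WT mean 4.37 times the KO mean. In medium they were 4.57 ± 1.99 TPM in KO (n = 6) and 23.7 ± 13.1 TPM in WT (n = 4), a WT mean 5.19 times the KO mean.

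On the log2(TPM + 1) scale, which understates the change of low genes, Id2 was lower in KO in both conditions. The difference was -2.02 (SE 0.51) with beads and -2.08 (SE 0.36) in medium, which is a description and no test. Of all 29989 genes tested, 0.00333% passed limma's test between KO and WT with beads and 0.0734% in medium (adjusted p under 0.05). In medium 1.56% of all genes had groups that did not overlap, and among the 5 genes Id2 was the 1 that did not. These shares stand beside the Id2 values as background only, since this difference was the reason for the choice. Under the 4 other scalings of the libraries the Id2 difference lay between -2.30 and -1.78 with beads and between -2.08 and -1.76 in medium. Predicted genes took a larger part of the KO libraries in both conditions, and Id2 in the lowest KO libraries in medium was at the level of the upper olfactory receptor genes, so its level there lies near the background of the assay. In bulk RNA, fewer cells that express a gene and less RNA in each cell cannot be told apart, here and for every gene that follows.

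**Figure D1:**
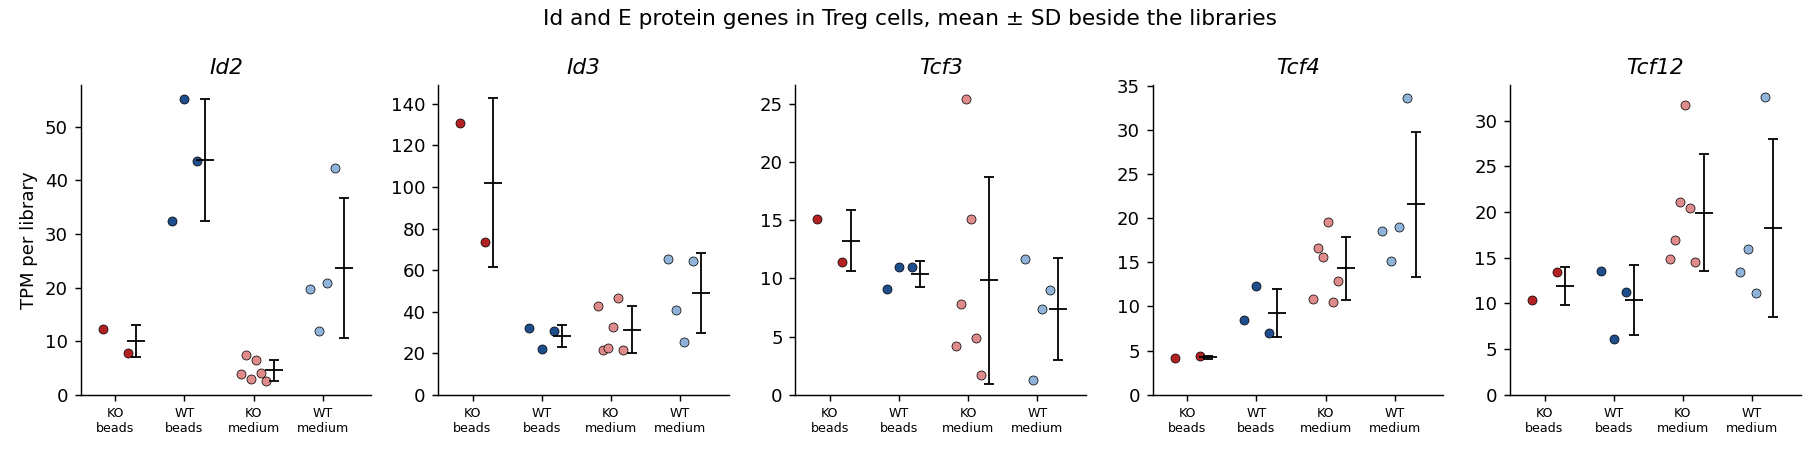
Levels of the 5 genes in TPM (vertical axes, one scale per gene) in each library (points) of KO and WT Treg cells with beads and in medium alone, with the group mean and SD beside the points (n = 2, 3, 6 and 4). Id2 is low in every KO group, Id3 is highest in the 2 KO bead libraries, and Tcf4 is lowest there.

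The mean level of Id2 was higher with beads than in medium in both genotypes, and neither difference passed the test. In KO cells the mean was 10.0 TPM with beads and 4.57 TPM in medium, and both bead libraries lay above all 6 libraries in medium. The difference was 1.03 (SE 0.45) on the log2 scale, with an unadjusted p of 0.0379 and an adjusted p of 0.199. In WT cells the mean was 43.8 TPM with beads and 23.7 TPM in medium, with ranges that overlapped. There the difference was 0.97 (SE 0.42), with an unadjusted p of 0.0375 and an adjusted p of 0.162. The intervals of the bead response, 0.07 to 1.99 in KO and 0.06 to 1.87 in WT, were nearly the same. The difference between both responses, KO minus WT, was 0.06 (SE 0.62, 95% interval -1.26 to 1.39), so a difference between genotypes of more than 1 log2 unit in either direction lies within the interval. After beads the KO mean of 10.0 TPM was still below the lowest WT library in medium, at 11.9 TPM, although 1 KO bead library was at 12.2 TPM.

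With beads, Id3 was higher in KO than in WT Treg cells, where Id2 was lower, and in medium its mean was lower in KO. Id3, at chr4:136143497-136145755 on the plus strand (ENSMUSG00000007872), had 131 and 73.3 TPM in KO cells with beads, against 32.0, 22.2 and 30.8 TPM in WT cells with beads. Both KO values were above all 3 WT values, and they were the 2 highest Id3 levels of all 15 libraries. In medium the KO libraries had a lowest value of 21.5, a median of 27.5 and a highest of 46.7 TPM, against 65.1, 40.7, 25.6 and 64.3 TPM in the WT libraries. There the KO libraries lay lower on average and the groups overlapped. The means were 102 ± 40.8 TPM in KO and 28.3 ± 5.36 TPM in WT with beads, 3.60 times higher in KO, and 31.2 ± 11.3 TPM in KO and 48.9 ± 19.2 TPM in WT in medium, a KO mean 0.637 times the WT mean. On the log2 scale the KO minus WT difference was 1.77 (SE 0.47) with beads and -0.61 (SE 0.33) in medium, and the sign of each held in 27 of 27 alternative ways of processing. Many of these cannot change the difference, such as another filter or leaving out a library of a group not compared. With beads 25.5% of all genes had groups that did not overlap, as few libraries were compared, and 4 of the 5 genes did not overlap (Id3 and Tcf3 above, Id2 and Tcf4 below).

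Id3 rose with beads in KO cells, and the WT difference had the opposite sign and did not pass the test. In KO cells Id3 averaged 102 TPM with beads and 31.2 TPM in medium, 3.27 times higher, and both bead libraries lay above all 6 libraries in medium. The log2 difference was 1.69 (SE 0.42, 95% interval 0.80 to 2.59), with an adjusted p of 0.0214 by limma over all genes tested. It rests on the same 2 high KO bead values as the genotype difference with beads. In WT cells Id3 averaged 28.3 TPM with beads and 48.9 TPM in medium, a log2 difference of -0.69 (SE 0.39, 95% interval -1.53 to 0.15), with an adjusted p of 0.284, and of -0.08 (adjusted p = 0.939) under median-ratio scaling, with a range of 0.0101 to 0.939 over the alternatives. The difference between both responses was 2.38 (SE 0.58), which combines the genotype differences that led to the choice of Id3 and is given with no test. Over all genes, 0.00333% passed the test of that difference. The KO bead response rests on 2 libraries: it was 1.28 (adjusted p = 0.309) without the library numbered 4 and 2.11 (adjusted p = 0.0860) without the one numbered 5, where the lone remaining library is assumed to vary like the other groups. The call was also lost under quantile normalization (1.17, adjusted p = 0.0979) and on removal of predicted genes (0.81, adjusted p = 0.139), and adjusted p ran between 0.0104 and 0.309 over the 27 alternatives.

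The share of Id2 within the inhibitors separated the genotypes most widely with beads. Id2 divided by Id3, a ratio within a library that a common scale factor cannot alter, was 0.0928 and 0.108 in KO cells with beads, against 1.02, 2.49 and 1.42 in WT cells with beads. In medium it had a lowest value of 0.0856, a median of 0.125 and a highest of 0.348 in KO libraries, against 0.303, 0.293, 0.812 and 0.660 in WT libraries. Id2 was above Id3 in 3 of 3 WT bead libraries and below it in the other 12 libraries, and in the lowest of those 3 it was nearly level with Id3, at 32.5 and 32.0 TPM. Id2 made up 9.11% ± 0.871 of the summed Id2 and Id3 TPM in KO cells and 60.1% ± 10.6 in WT cells with beads, and 13.5% ± 6.79 in KO cells and 32.6% ± 11.4 in WT cells in medium (SD). The sum of both inhibitors was 143 and 81.2 TPM in KO cells with beads, above the 64.6 to 77.4 TPM of WT cells with beads. In medium the order was the other way, with 24.1 to 50.7 TPM in KO libraries and 46.4 to 107 TPM in WT libraries, which overlapped in part.

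**Figure D2:**
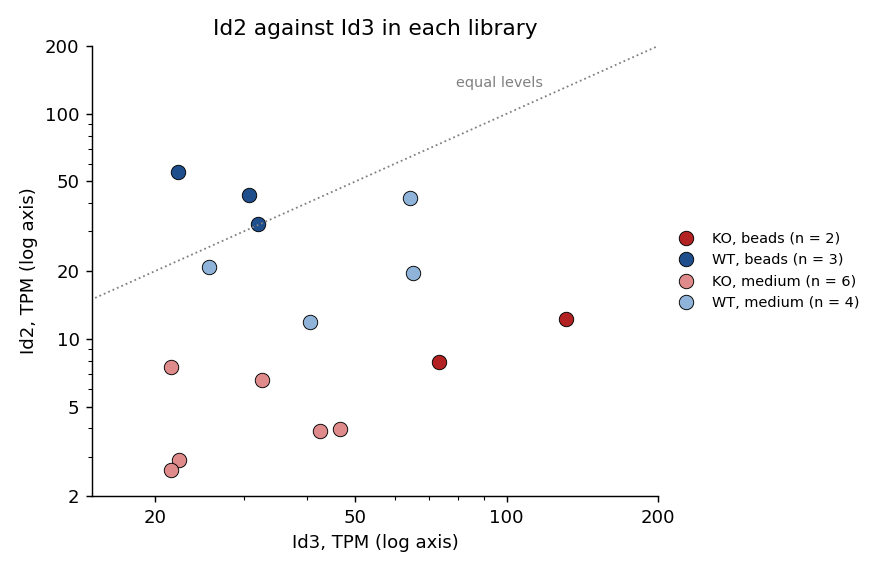
Id2 (vertical axis) against Id3 (horizontal axis) in TPM on log axes, 1 point per library, with a dotted line where both levels are equal. The 3 WT bead libraries lie at or above the line, and the 2 KO bead libraries lie far below it at the highest Id3 levels, 131 and 73.3 TPM.

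Tcf4 fell with beads in both genotypes and was the 1 E protein gene that passed the test, while the mean of Tcf12 was also lower with beads in both without passing it. Tcf4, whose protein is a main E protein of plasmacytoid dendritic cells, is annotated at chr18:69343356-69689079 on the plus strand (ENSMUSG00000053477). It had 4.11 and 4.35 TPM in KO cells with beads, against a lowest value of 10.5, a median of 14.2 and a highest of 19.6 TPM in KO cells in medium. In WT cells it had 8.46, 12.3 and 7.05 TPM with beads, against 18.5, 15.2, 19.0 and 33.6 TPM in medium. In neither genotype did the bead and medium-alone libraries overlap. The log2 difference was -1.52 (SE 0.36, 95% interval -2.29 to -0.75) in KO cells, with an adjusted p of 0.0164, and -1.11 (SE 0.34, 95% interval -1.82 to -0.39) in WT cells, with an adjusted p of 0.0455 by limma.

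The WT call for Tcf4 is close to the threshold and was lost in 17 of 27 alternatives. It was lost under median-ratio scaling, where the difference was -0.53 (adjusted p = 0.346), under quantile normalization (-0.85, adjusted p = 0.139) and when scaled to abundant genes (-1.10, adjusted p = 0.0512). It was lost on leaving out any of the WT bead libraries (adjusted p = 0.140 without number 1, 0.0591 without number 2 and 0.182 without number 3), the unnumbered WT library in medium (0.0587) or those numbered 2 (0.0777) and 3 (0.105). It was lost as well without a KO library in medium, numbered 1 (0.0516) or 5 (0.0544), or without either KO bead library (0.0609 each), and adjusted p ran between 0.00200 and 0.346 over the alternatives. The KO call was lost without the bead library numbered 4 (0.160) or 5 (0.156), within a range of 0.000595 to 0.227, and without the 4 KO libraries in medium with over 70% of TPM in predicted genes (0.0929). The sign held in every alternative in both genotypes, though many of these cannot change the difference, such as leaving out a library of the other genotype. The median gene also shifted with beads, by -0.23 in KO and -0.44 in WT on the log2 scale as deposited, and the Tcf4 differences are -1.52 and -1.11 against those shifts. Between genotypes Tcf4 averaged 4.23 ± 0.165 TPM in KO and 9.26 ± 2.69 TPM in WT with beads, a log2 difference of -0.94 (SE 0.40). In medium it averaged 14.3 ± 3.58 TPM in KO and 21.6 ± 8.22 TPM in WT, a log2 difference of -0.53 (SE 0.28), with overlapping groups.

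Tcf3 and Tcf12 did not pass the test of the bead response in either genotype. Tcf3, which gives rise to E proteins needed for B and T cell development, is annotated at chr10:80409514-80433647 on the minus strand (ENSMUSG00000020167). It had 15.1 and 11.4 TPM in KO cells and 9.08, 11.0 and 11.0 TPM in WT cells with beads. In medium it spread the most of the 5 genes for its level, from 1.68 to 25.4 TPM (median 6.34) in KO libraries and from 1.31 to 11.7 TPM (median 8.20) in WT libraries. All 5 bead libraries lay inside the range of the KO libraries in medium. Its bead response was 0.78 (SE 0.74, 95% interval -0.79 to 2.35, adjusted p = 0.596) in KO and 0.68 (SE 0.69, 95% interval -0.79 to 2.15, adjusted p = 0.570) in WT by limma. The KO minus WT difference was 0.32 (SE 0.83) with beads and 0.22 (SE 0.58) in medium, and the value in medium changed sign, to -0.32 and -0.12, without the WT library numbered 1 or the KO library numbered 2.

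Tcf12 encodes the E protein known as HEB, a partner of the Tcf3 proteins in thymocytes, and is annotated at chr9:71842688-72111871 on the minus strand (ENSMUSG00000032228). It had 10.4 and 13.4 TPM in KO cells with beads and 13.6, 6.12 and 11.3 TPM in WT cells with beads. In medium it had a lowest value of 14.5, a median of 18.8 and a highest of 31.7 TPM in KO libraries, against 13.4, 16.0, 11.1 and 32.6 TPM in WT libraries. Both KO bead libraries lay below all KO libraries in medium, while the WT groups overlapped. Its bead response was -0.66 (SE 0.42, adjusted p = 0.403) in KO and -0.71 (SE 0.39, adjusted p = 0.272) in WT, and it passed the test in both genotypes, at -1.58 (adjusted p = 0.0143) and -1.39 (0.0150), where predicted genes were removed and the rest rescaled. Over its alternatives adjusted p ran from 0.0143 to 0.760 in KO and from 0.0150 to 0.892 in WT. The KO minus WT difference was 0.24 (SE 0.47) with beads and 0.19 (SE 0.33) in medium, and the value with beads was -0.02 under median-ratio scaling and -0.07 without the WT bead library numbered 2. Other annotated genes lie within the span of Tcf12, some listed above Tcf12 itself: Gm27450, a microRNA gene on the opposite strand, had a median of 487 and a highest value of 910 TPM, and A430027C01Rik, on the same strand, a median of 33.2 and a highest value of 55.6 TPM. Whether these genes overlap exons of Tcf12 was not examined, and no source here states that reads were counted by strand. Whether reads of Tcf12 and of these genes were told apart is thus unknown.

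Of the 5 genes, 2 passed the test of the bead response in KO cells (Id3 higher and Tcf4 lower), where 8.11% of all genes did, and 1 passed in WT cells (Tcf4 lower), where 11.2% did. At an unadjusted p under 0.05, the counts were 3 of 5 in KO (Id2, Id3 and Tcf4) against 21.4% of all genes, and 2 of 5 in WT (Id2 and Tcf4) against 26.1%. Groups did not overlap for 4 of 5 genes in KO, where this held for 22.6% of all genes, and for 1 of 5 in WT, where it held for 29.5%. These counts are no test of the 5 genes as a set. Id2 and Id3 were chosen on differences that use the same bead and medium-alone libraries. The direction of the calls over all genes depends on the scaling. In KO, 73.4% of called genes were higher with beads as deposited, and 80.6%, 41.0%, 60.8% and 24.1% under median-ratio scaling, scaling to abundant genes, quantile normalization and removal of predicted genes. In WT the shares were 40.9% as deposited and 80.5%, 45.8%, 57.3% and 16.8% in the same order. Under those scalings the median gene moved by -0.14, -0.46, -0.09 and -0.74 in KO and by -0.14, -0.43, -0.05 and -0.90 in WT.

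**Figure D3:**
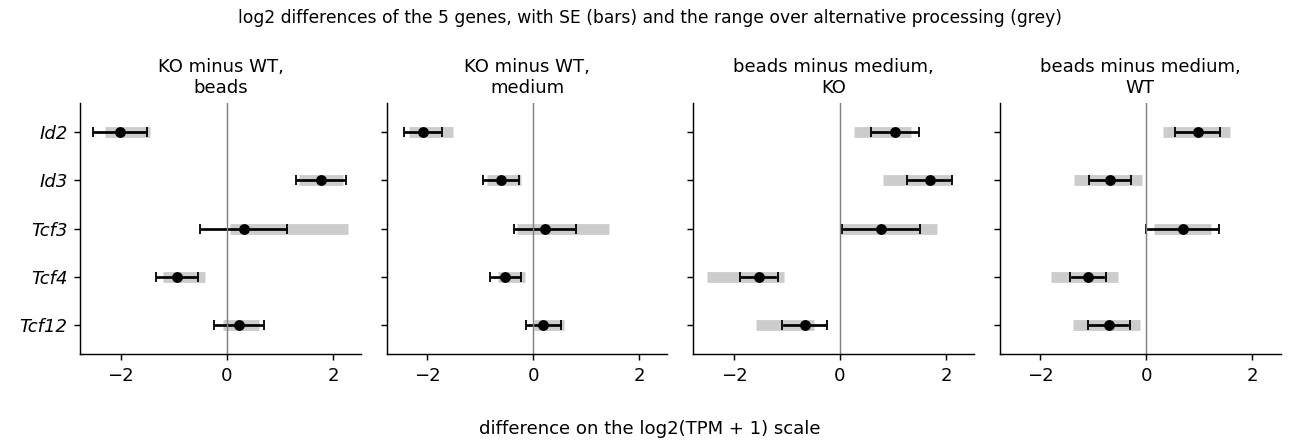
Differences of the 5 genes on the log2(TPM + 1) scale (horizontal axis) between KO and WT with beads and in medium, and between beads and medium in KO and WT. Points are the fitted values, bars their SE and grey bands the range over 27 alternative ways of processing, and the Id3 point lies to the right of 0 for KO minus WT with beads (1.77) and to the left in medium (-0.61).

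The summed level of the 3 E protein genes was nearly the same in all bead libraries, while its make-up differed. The sum was 29.6 and 29.1 TPM in KO cells and 31.1, 29.4 and 29.3 TPM in WT cells with beads. In medium it was 29.1 to 66.5 TPM (median 38.6) in KO libraries and 32.5 to 75.2 TPM (median 40.5) in WT libraries, so the libraries in medium ranged more than the bead libraries. Tcf4 made up 14.4% ± 0.725 of the sum in KO and 31.0% ± 9.40 in WT with beads, and 34.1% ± 7.36 in KO and 46.1% ± 3.52 in WT in medium (SD). Tcf3 made up 39.0% and 51.0% in KO and 29.2% to 37.5% in WT with beads, and 5.77% to 41.0% in KO and 4.04% to 26.9% in WT in medium. Tcf12 was between 34.4% and 46.6% of the sum on average in all 4 groups. The summed inhibitors divided by the summed E protein genes were 4.84 and 2.79 in KO and 2.07, 2.63 and 2.54 in WT with beads. In medium that ratio was 0.406 to 1.55 (median 0.764) in KO and 1.24 to 1.95 (median 1.52) in WT. The bead libraries thus lay above all libraries of their genotype in medium. These are ratios of transcripts, and protein was not measured.

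**Figure D4:**
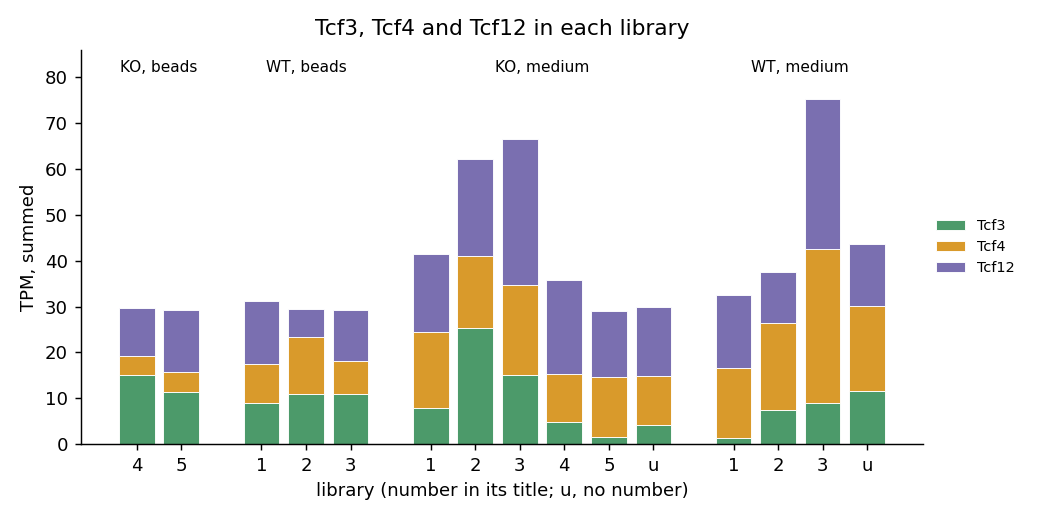
TPM of Tcf3, Tcf4 and Tcf12 stacked for each library (vertical axis), grouped as KO and WT with beads and KO and WT in medium (library numbers as in the titles). The 5 bead libraries reach 29.1 to 31.1 TPM, and the Tcf4 part is thinnest in the 2 KO bead libraries.

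The order of the 5 genes by mean level differed between the groups. In KO cells with beads Id3 stood apart at 102 TPM, followed by Tcf3, Tcf12 and Id2 between 13.2 and 10.0 TPM with overlapping ranges, and Tcf4 at 4.23 TPM lay below them without overlap. In WT cells with beads Id2 (43.8 TPM) and Id3 (28.3 TPM) led without overlap, and Tcf3, Tcf12 and Tcf4 followed at 10.4, 10.3 and 9.26 TPM, within each other's spread. In KO cells in medium the order was Id3, Tcf12, Tcf4, Tcf3 and Id2, and every neighbouring pair overlapped, although Id3 was above Tcf12 and Tcf12 above Tcf4 within each of the 6 libraries. In WT cells in medium the order was Id3, Id2, Tcf4, Tcf12 and Tcf3, again with overlap between neighbours, and Id3 was above Id2 in each of the 4 libraries. Id2 was thus lowest of the 5 by mean in KO cells in medium and highest in WT cells with beads.

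Id1, the other Id gene listed in all tables, rose with beads in WT cells. Id1 had 2.08 and 5.78 TPM in KO cells and 8.83, 15.7 and 20.9 TPM in WT cells with beads, and 1.13 to 6.45 TPM in KO and 0 to 0.811 TPM in WT in medium, where it was listed at 0 in 2 of 4 WT libraries. The bead response was 0.66 (SE 0.53, adjusted p = 0.520) in KO and 3.61 (SE 0.49, adjusted p = 0.000617) in WT by limma, and the WT call held in 27 of 27 alternatives. Between genotypes Id1 did not pass the test, at -1.74 (SE 0.59, adjusted p = 1.00) with beads and 1.21 (SE 0.42, adjusted p = 0.289) in medium. Apart from 1 KO library at 6.45 TPM, its levels in medium lay under the 90th percentile of olfactory receptor genes in those libraries. The signs of its genotype differences were opposite to those of Id3 in both conditions. The difference between its bead responses, KO minus WT, was -2.95 (SE 0.72) with an adjusted p of 0.641, and so did not pass the test over all genes.

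Of 24 genes known to act upstream of Id2 or Id3, 23 were tested, and 5 rose and 0 fell with beads in KO while 6 rose and 2 fell in WT, beside 8.11% of all genes called in KO and 11.2% in WT. In KO the median of the 23 was 0.51, beside -0.23 over all genes, and in WT it was -0.08, beside -0.44. Irf4, a factor of activated and effector Treg cells, was at 79.7 ± 9.35 TPM with beads and 1.33 ± 0.694 TPM in medium in KO, and at 92.1 ± 1.90 TPM with beads and 1.14 ± 0.777 TPM in medium in WT. Egr1 and Egr2, factors induced by the T cell receptor and known to raise Id3 in mouse thymocytes, rose by 3.07 and 3.72 in KO (adjusted p = 0.000307 and 0.00180) and by 2.57 and 3.84 in WT (0.000799 and 0.00110). Batf, the AP-1 partner of Irf4, rose by 3.41 in KO and 3.65 in WT, and Stat5a, which carries the IL-2 signal, by 2.24 and 1.71. Tbx21, the gene of T-bet, rose in WT (2.59, adjusted p = 0.00657), at 12.5 ± 8.46 TPM with beads and 1.18 ± 1.16 TPM in medium. The genes that fell in WT were Bmpr2, a receptor for bone morphogenetic proteins (-1.95, adjusted p = 0.00226), and Zeb1, an E-box repressor (-1.06, adjusted p = 0.0312), whose call was lost in 9 of 27 alternatives. Calls of the others were kept in at least 24 of 27.

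None of these upstream genes passed limma's test between KO and WT, with beads or in medium. At an unadjusted p under 0.05, 0 were higher and 2 lower in KO with beads, and 0 were higher and 3 lower in medium. The smallest p with beads belonged to Tbx21, at 1.87 ± 1.02 TPM in KO and 12.5 ± 8.46 TPM in WT (log2 difference -2.11, adjusted p = 1.00), and to Batf, at 83.5 ± 9.74 TPM in KO and 316 ± 94.4 TPM in WT (-1.87, adjusted p = 1.00). In medium they belonged to Batf, at 9.59 ± 9.89 TPM in KO and 25.6 ± 10.5 TPM in WT (-1.63, adjusted p = 0.250), and to Stat5a, at 13.7 ± 5.59 TPM in KO and 25.0 ± 9.33 TPM in WT (-0.84, adjusted p = 0.336).

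Of 20 genes known as E protein targets in lymphocytes, 5 rose and 1 fell with beads in KO, and 3 rose and 3 fell in WT, again beside 8.11% of all genes called in KO and 11.2% in WT. In KO the median was 0.45, beside -0.23 over all genes, and in WT it was -0.30, beside -0.44. Cdkn1a, an inhibitor of the cell cycle, Socs1, a brake on cytokine signalling, and Il10, the gene of an immunosuppressive cytokine, rose in both genotypes. They rose by 4.24, 3.51 and 4.20 in KO (adjusted p = 0.00935, 0.00680 and 0.00120) and by 3.86, 3.54 and 3.69 in WT (0.00947, 0.00396 and 0.00184). Il7r, a receptor of resting T cells, fell by 1.74 in KO (adjusted p = 0.0157) and by 3.30 in WT (0.000172), to 7.57 ± 0.372 TPM with beads, against 29.5 ± 12.4 TPM in medium, in KO, and to 4.92 ± 1.15 TPM with beads, against 58.8 ± 18.9 TPM in medium, in WT. Cdk6, a cyclin-dependent kinase gene, rose in KO (2.31, adjusted p = 0.0243), and Cxcr5 and Bcl6, genes of follicular T cells, fell in WT (-1.45 and -1.42, adjusted p = 0.0403 and 0.0490). The Bcl6 call held in 9 of 27 alternatives, the Cxcr5 call in 14 and the Cdk6 call in 19.

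None of the E protein targets passed limma's test between genotypes. At an unadjusted p under 0.05, 0 were higher and 1 lower in KO with beads, and 0 were higher and 6 lower in medium, where the median was -0.59 beside -0.11 over all genes. The smallest p with beads belonged to Socs1, at 25.1 ± 8.55 TPM in KO and 83.6 ± 5.77 TPM in WT (log2 difference -1.74, adjusted p = 1.00), and Socs3 (-1.36, adjusted p = 1.00). In medium they belonged to Il7r, at 29.5 ± 12.4 TPM in KO and 58.8 ± 18.9 TPM in WT (-1.01, adjusted p = 0.254), and Socs1, at 2.18 ± 3.21 TPM in KO and 7.02 ± 4.18 TPM in WT (-1.70, adjusted p = 0.269).

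For 15 genes of E protein cofactors, the median bead response was 0.22 in KO, beside -0.23 over all genes, and -0.46 in WT, beside -0.44. Of 17 other helix-loop-helix partner genes, Bhlhe40, a repressor induced by T cell activation, rose in KO (2.43, SE 0.60, adjusted p = 0.0199), to 37.4 ± 8.99 TPM with beads, against 7.48 ± 5.99 TPM in medium, and none was called in WT, where 0 were higher and 1 lower at an unadjusted p under 0.05. The smallest p in WT belonged to Mitf (-1.04, adjusted p = 0.146) and Hes1 (-1.60, adjusted p = 0.200). The medians of the 17 were -0.39 in KO and -0.44 in WT, beside -0.23 and -0.44 over all genes.

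Neither of these lists had a gene called between KO and WT by limma. With beads no gene of either list had an unadjusted p under 0.05, and the smallest p belonged to Cbfa2t3 (1.47), Tada2a (0.82), Hes1 (1.59) and Tcf21 (-0.62), each with an adjusted p of 1.00. In medium 0 cofactors were higher and 3 lower at an unadjusted p under 0.05, among them Lmo2 (-1.76, adjusted p = 0.339), and 1 partner gene was higher and 1 lower, Tcf15 (1.23, adjusted p = 0.384) and Bhlhe40 (-1.23, adjusted p = 0.344).

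The genes whose level ran most like Id2 over the 15 libraries were Tigit, Haus3 and Vmp1. They were the nearest of 4396 genes by the root mean square difference of standardised log2(TPM + 1), at 0.351, 0.447 and 0.447 SD. Tigit, a coinhibitory receptor of Treg cells, averaged 75.4 ± 7.95 TPM in KO and 225 ± 33.7 TPM in WT with beads, and 49.3 ± 9.65 TPM in KO and 197 ± 29.9 TPM in WT in medium. As with Id2, the KO libraries lay below the WT libraries in both conditions. The nearest to Id3 were Ccr7, the homing receptor of naive and central memory T cells, Tuba1a, a tubulin gene, and Tspan13, a tetraspanin gene, at 0.424, 0.515 and 0.605 SD. Ccr7 averaged 269 ± 33.9 TPM in KO and 163 ± 30.1 TPM in WT with beads, and 133 ± 40.2 TPM in KO and 174 ± 61.5 TPM in WT in medium. Id2 and Id3 were 1.35 SD apart by the same measure, Id2 and Tcf4 1.36 SD, and Id3 and Tcf4 1.66 SD. All these genes share the same 15 libraries and their make-up, and the nearest genes were picked for their likeness, so the values are a description.

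**Figure D5:**
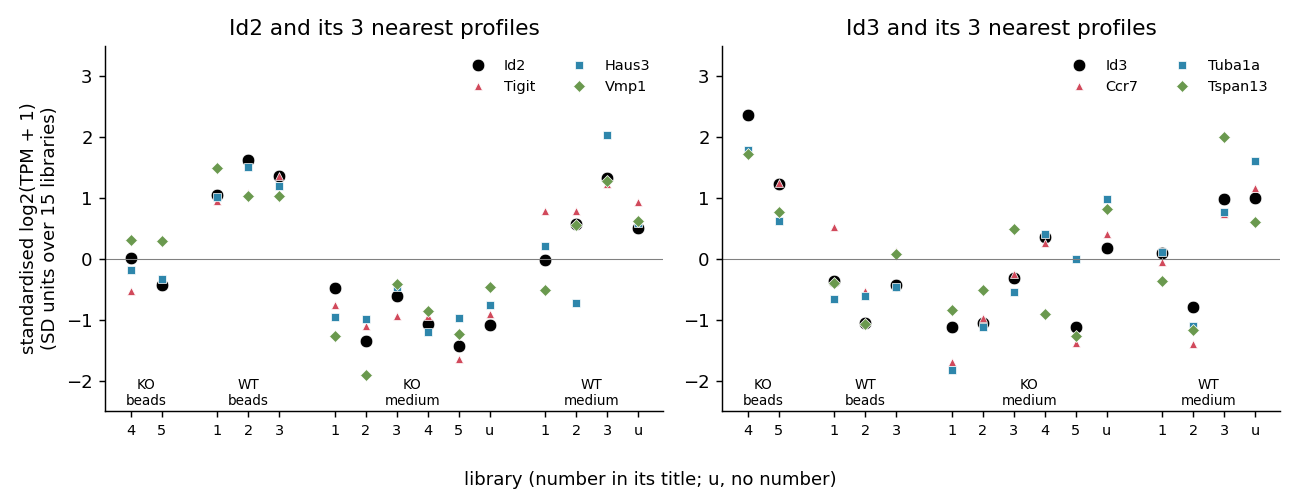
Standardised log2(TPM + 1) in SD units over the 15 libraries (vertical axes) of Id2 and Id3 with the 3 genes nearest to each, by library within the 4 groups (horizontal axes). Tigit follows Id2 with low values in the KO libraries, and Ccr7 follows Id3 with its highest values in the KO bead libraries.

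Markers of the labelled cell type and of other cells were set beside these levels. All 10 Treg markers were listed, and their summed TPM was 1300 to 1330 in KO and 1310 to 1350 in WT with beads, and 481 to 711 in KO and 741 to 1330 in WT in medium. Foxp3 was at 42.2 and 42.7 TPM in KO and 88.6 to 106 TPM in WT with beads, and at 6.29 to 26.0 TPM in KO and 29.3 to 51.6 TPM in WT in medium, so it was lower in KO in both conditions with no overlap, as Id2 was. The Foxp3 locus itself carries YFP-Cre in the KO cells. In medium the summed Treg markers were also lower in KO without overlap, as were Ctla4 and Cd3d. Ctla4 was there at 19.9 to 51.6 TPM in KO and 52.4 to 95.9 TPM in WT. Il2rb, Ikzf2, Cd4, Cd3e and Cd3g had lower KO means with overlap, Il2ra was level, and Entpd1 was higher in KO on average. With beads Il2ra, Il2rb and Ikzf2 were lower in KO without overlap, Cd3d and Cd3g were higher without overlap, and the sum overlapped. Summed markers of conventional dendritic and myeloid cells, 7 of 8 of which were listed, were 7.25 to 8.51 TPM in KO and 3.38 to 8.28 TPM in WT with beads, and 7.78 to 32.8 TPM in KO and 9.11 to 43.0 TPM in WT in medium. Summed markers of plasmacytoid dendritic cells, all 8 listed, were 109 to 117 TPM in KO and 169 to 176 TPM in WT with beads, and 28.7 to 70.9 TPM in KO and 38.2 to 83.7 TPM in WT in medium.

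Bst2, which interferon induces in many cell types, gave the largest part of the plasmacytoid sum. Siglech, the defining marker, averaged 1.93 TPM in KO and 1.74 TPM in WT with beads, near the background of olfactory receptor genes. In medium Siglech was at 4.35 to 8.12 TPM in KO (mean 5.64) and 1.45 to 3.64 TPM in WT (mean 2.46), higher in KO without overlap. That KO mean was above the 90th percentile of olfactory receptor genes in KO libraries in medium, 3.31 to 5.26 TPM. Other markers of that list ran both ways in medium. Bst2 and Pacsin1 had lower means in KO (13.1 and 10.1 TPM) than in WT (19.3 and 18.3 TPM). Clec10a and Spib did too (7.66 and 2.42 TPM against 9.96 and 2.98 TPM). Ccr9 was level (3.95 and 3.96 TPM), and Irf8 (4.68 and 4.16 TPM) and Ly6d (1.86 and 0 TPM) were higher in KO on average. Summed markers of B cells, 6 genes, ran from 13.8 to 21.9 TPM in KO and 7.14 to 20.6 TPM in WT with beads, and from 10.8 to 37.6 TPM in KO and 11.7 to 25.5 TPM in WT in medium. For natural killer and innate lymphoid cells, which express Id2 strongly, the 8 markers summed to 30.7 to 44.7 TPM in KO and 33.1 to 62.5 TPM in WT with beads, and to 27.7 to 58.0 TPM in KO and 31.6 to 68.5 TPM in WT in medium. The ranges of that sum overlapped between genotypes in both conditions. Nkg7, a granule gene of cytotoxic cells in that list, was at 6.37 to 12.6 TPM in KO and 16.9 to 46.4 TPM in WT with beads, and at 0 to 3.41 TPM in KO and 3.58 to 26.0 TPM in WT in medium, so it was lower in KO without overlap in both conditions, as Id2 was. The 4 markers of CD8 T cells summed to 9.42 to 13.0 TPM in KO and 3.72 to 10.9 TPM in WT with beads, and to 4.05 to 21.3 TPM in KO and 11.5 to 25.1 TPM in WT in medium. The part of other cells, of Foxp3 and of predicted genes in the differences of Id2, Id3 and Tcf4 was not tested.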

How the data were processed

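The authors deposited 1 table per library of TPM per Ensembl gene from Smart-Seq2 libraries. Per the submitters' processing notes, STAR, Salmon, DESeq2 and mm10 were used; neither versions, roles nor the use of strand are stated. TPM summed to 819697 to 938139 per library, since genes may be missing from the tables, and read depth is unknown. Names and coordinates came from GENCODE vM21, and 30788 of 30949 shared identifiers had a symbol. Groups came from the labels. The test was limma 3.58.1 (R 4.3.3) with a trend on log2(TPM + 1), 1 mean per group over all 15 libraries (11 residual degrees of freedom), on 29989 genes with at least 1 TPM in 2 libraries, two-sided, with Benjamini-Hochberg adjustment over all genes and calls at an adjusted p under 0.05. The fit was tested on simulated data. The members and the gene lists were chosen with earlier results of these data known. Named were the 5 members, the list genes called in any comparison, the 2 smallest p where a list had none called, and the 3 profiles nearest to Id2 and Id3 among genes of at least 20 TPM in some group, without members, microRNAs, pseudogenes, predicted genes, antigen receptor segments and RIKEN clones. Alternatives covered pseudocount, filter, 4 scalings, the libraries fitted, a replicate block and each library left out. The alternative without 4 KO libraries was added after seeing the data. Results of 2 list genes are not reported here.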

Additional observations from a re-analysis of the deposited data

Results flagged for a closer look

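Id3 was singled out because its bead response ran in opposite directions in the 2 genotypes in every bead library. Relative to the mean of their genotype in medium, the 2 KO bead libraries were higher by 1.28 and 2.11 on the log2(TPM + 1) scale, and the 3 WT bead libraries lay between -1.01 and -0.50. The difference between both responses, KO minus WT, was 2.38. The WT response was -0.08 under median-ratio scaling, against -0.69 as deposited, and the KO response was 0.81 with predicted genes removed, against 1.69 as deposited. It was not tested, because Id3 was chosen from genotype differences that it combines. No library in medium stood apart from the rest of its group by Dixon's criterion in 26 sets of values examined, of which chance alone would single out about 1 in 20. The bead groups hold too few libraries for the criterion as set, so no bead library was examined.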

How the results depend on the processing

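Id2 kept its lower level in KO in 27 of 27 alternatives with beads (-2.30 to -1.45) and in medium (-2.35 to -1.51), and Id3 kept both signs. Many of the alternatives leave these differences unchanged by design, such as another filter or leaving out a library of a group not compared. The Tcf3 bead response in KO reversed to -0.0027 (adjusted p = 0.999) with predicted genes removed, beside an adjusted p of 0.139 to 0.999 over its alternatives; the cause was not tested. The calls of Id3 in KO and of Tcf4 in KO and WT were lost in 7, 5 and 17 alternatives, and 4 values that did not pass the test passed in an alternative: Id2 in WT under median-ratio scaling (1.57, adjusted p = 0.0126 within 0.0126 to 0.603), and with predicted genes removed Id3 in WT (-1.37, 0.0101 within 0.0101 to 0.939) and Tcf12 in both genotypes.

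The number of genes called between KO and WT in medium, 22, was 8 and 13 with pseudocounts of 0.1 and 5, 6 under median-ratio scaling, 8 when scaled to abundant genes, 7 under quantile normalization, 9 with predicted genes removed, 4 with only the groups compared, 44 without unnumbered libraries, 11 without the 4 KO libraries of over 70% predicted genes, and 5 to 67 with a library left out. With beads the count of 1 was 2 and 0 with those pseudocounts, 0 when scaled to abundant genes, 15 with only the groups compared, 2 without unnumbered libraries, 5 without those 4 libraries, and 0 to 3 with a library left out. The bead response called 2431 genes in KO, and 1198 with only the groups compared, 995 without those 4 libraries and 380 to 2703 with a library left out. In WT it called 3366 genes, 2097 under quantile normalization and 1650 to 3645 with a library left out. The difference between bead responses, with 1 gene called, gave 3 and 0 with those pseudocounts, 2 with a filter of 5 TPM, 2 under median-ratio scaling, 0 when scaled to abundant genes and under quantile normalization, 2 with predicted genes removed, 5 without unnumbered libraries, 4 without those 4 libraries, and 0 to 6 with a library left out.

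Libraries with the same number did not deviate together (correlations of -0.037 to 0.055 over 5937 genes). Deviations from the means of such small groups cannot show whether same-numbered libraries share a mouse or a sort. The labels do not say, so whether the numbers pair the samples is unknown. With a replicate block, which leaves 5 residual degrees of freedom, 1 gene was called between genotypes in medium, 0 with beads, 922 in the KO bead response and 0 in the difference between bead responses. With the block the KO minus WT difference of Tcf3 was 2.29 with beads and 1.43 in medium, against 0.32 and 0.22 without it, and that of Tcf4 with beads was -0.42, against -0.94. With the block the adjusted p was 0.0625 for Id3 and 0.227 for Tcf4 in KO and 0.104 for Tcf4 in WT. Leaving out a KO bead library leaves 1 library that is assumed to vary like the other groups. Read depth is unknown, so values near the level of olfactory receptor genes, such as Id2 in KO libraries in medium and Id1, limit how small a difference can be seen.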
